A study of Macaca mulatta with 8 samples.

Results

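The tripartite motif (TRIM) genes were taken as all features of the deposited tables whose symbol is TRIM followed by a digit, which gave 56 of 26533 features. The rule used the symbols alone and no measured value. Of the 56 members, 52 had at least 1 unique molecular identifier (UMI) in cells of a named class and 4 (TRIM42, TRIM60, TRIM75P and TRIM77) had none. After the filter on low counts 45 members could be tested in at least 1 of 4 cell classes, 27 in all 4 classes and 11 in none.

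Most TRIM proteins are E3 ubiquitin ligases built from a RING domain, B-box zinc fingers and a coiled coil, followed by a C-terminal domain that recognises the target. Several are themselves induced by interferon and restrict viruses or tune the sensors that lead to interferon, such as TRIM25 at RIG-I, TRIM21, a cytosolic antibody receptor, and TRIM5, which binds incoming retroviral capsids. Other members act as transcription co-regulators, bind microtubules, or serve muscle and neurons.

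The libraries were 5′ droplet single-cell RNA-seq of macaque retina 12 weeks after surgery. NHP1 (5 years) gave 1 library from each eye labelled uninjected, and by the study's methods these eyes had received a CAG-promoter RPE65 vector in blebs elsewhere. NHP2 (6 years) gave 3 libraries from each eye, namely a bleb of AAV8-GRK1-mScarlet, a separate bleb of AAV8-GRK1-hRPGR and an area left uninjected, where GRK1 is a photoreceptor promoter and a bleb is the patch lifted by a subretinal injection. Triamcinolone had been given to every eye and adalimumab only to left eyes, so eye and drug cannot be told apart, and the doses of both vectors differed by the study's methods. The 6 libraries compared came from 1 animal, so p-values measure the spread between areas of its 2 eyes and there were no replicate animals.

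Libraries held 90634306 to 146519011 UMIs, and 91796 barcodes passed the filters on cells (at least 1500 UMIs), 9562 to 15080 a library. Classes were rebuilt by clustering and named from marker genes, so a value can differ from the study's through the naming, and "-like" marks such a name. The summed markers of the 4 tested classes were higher in their own class in every library than in any other class, closest for rods, whose lowest own sum was 33030 CPM (UMIs of the gene after scaling every class and library to the same total) against 31050 CPM in cells of another class. In NHP2 the uninjected and hRPGR left rods lay mainly in clusters 22, 6 and 14, hRPGR right in 39, 35 and 9, and mScarlet in 57, 9, 35 and 53, of which cluster 14 was led by haemoglobin genes. Müller glia-like cells lay in cluster 27 (left uninjected, and most of hRPGR left) or 51 (the right eye and both mScarlet blebs). Libraries also disagreed with their labels in part. The right uninjected library held 9748 UMIs of the RPGR transgene (coRPGR), the right mScarlet library 1292, and the left NHP1 library 32627 of the RPE65 transgene. The counts of members called and 53 fold changes of named members were therefore refitted without each NHP2 library. Between 197 and 255 cell barcodes of each library (1.69% to 2.16%) recurred in the library it shared most with. How many unrelated libraries would share was not computed.

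To show what lies before these genes, windows of 250 bases before every annotated transcript start (RefSeq, Mmul_10) were searched on both strands for the core of the interferon-stimulated response element, which is GAAA followed by any 2 bases (NN) and GAAA, and for the gamma-activated site, TTCNNNGAA. The table held 53 members by symbol. The interferon core was found before 5 of them (TRIM5, TRIM9, TRIM26, TRIM32 and TRIM44, 9.43%) against 5.37% of all 21077 protein-coding genes, and the gamma-activated site before 4 (TRIM15, TRIM36, TRIM59 and TRIM77, 7.55%) against 9.55%. Of the interferon-linked members TRIM5 and TRIM26 are thus among the former, and TRIM6, TRIM14, TRIM21, TRIM25, TRIM38, TRIM56 and TRIM69 held neither motif in these windows. The 3 windows below are shown for that contrast, each 5′ to 3′ on the strand of its gene and with the interferon core in capitals. They lie at chr14:62539438-62539687 on the plus strand for TRIM5, chr7:113288904-113289153 on the minus strand for TRIM9 and chr14:64192262-64192511 on the plus strand for TRIM21, and the core begins 47 bases before the start in TRIM5 and 133 in TRIM9.
TRIM5: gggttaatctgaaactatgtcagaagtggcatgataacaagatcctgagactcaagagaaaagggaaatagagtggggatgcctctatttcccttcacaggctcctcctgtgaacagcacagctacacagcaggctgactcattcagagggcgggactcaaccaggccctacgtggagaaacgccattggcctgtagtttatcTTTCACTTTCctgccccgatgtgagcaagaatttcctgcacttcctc
TRIM9: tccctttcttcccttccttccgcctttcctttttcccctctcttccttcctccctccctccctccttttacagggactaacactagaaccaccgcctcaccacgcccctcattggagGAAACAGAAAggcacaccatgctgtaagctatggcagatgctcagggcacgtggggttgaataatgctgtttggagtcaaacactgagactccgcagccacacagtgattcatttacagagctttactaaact
TRIM21: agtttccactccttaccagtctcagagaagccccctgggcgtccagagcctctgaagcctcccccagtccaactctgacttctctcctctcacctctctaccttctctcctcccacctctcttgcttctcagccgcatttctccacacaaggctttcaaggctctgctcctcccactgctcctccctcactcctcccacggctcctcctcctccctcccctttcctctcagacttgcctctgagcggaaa
A match is a description of letters. The windows end just before the start, so a core that crosses the start is not found. The TRIM21 window ends in gaaa, which are also the first bases of the interferon core.

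The summed level of all members ran from 1552 to 1802 CPM over the 8 rod libraries, from 1760 to 2023 CPM in cones, from 1496 to 1574 CPM in bipolar cells and from 1051 to 1413 CPM in Müller glia. In the fit of the 6 NHP2 libraries (edgeR quasi-likelihood test on UMIs summed per class, Benjamini-Hochberg adjusted p under 0.05 over all genes) 1 member was called in 12 comparisons, TRIM22 in bipolar-like cells of the mScarlet bleb. TRIM22 in bipolar cells passed the filter on low counts through the mScarlet libraries alone. The comparisons with the uninjected area share its libraries and are therefore given side by side.

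The reference for the interferon response was a list of 60 interferon-induced genes without any TRIM gene, 54 of which were in the tables. In rods its summed level was 559 CPM in the right and 321 CPM in the left uninjected area, 2485 and 540 CPM in the hRPGR blebs, and 4083 and 3554 CPM in the mScarlet blebs. It therefore ranked in the order uninjected, hRPGR, mScarlet within both eyes, as it also did in cones and bipolar cells. Müller glia of the right eye had the opposite order, with 32590 CPM in the uninjected area, 31720 CPM in the hRPGR bleb and 21220 CPM in the mScarlet bleb, while the left eye gave 3055, 6713 and 16770 CPM.

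**Figure D1:**
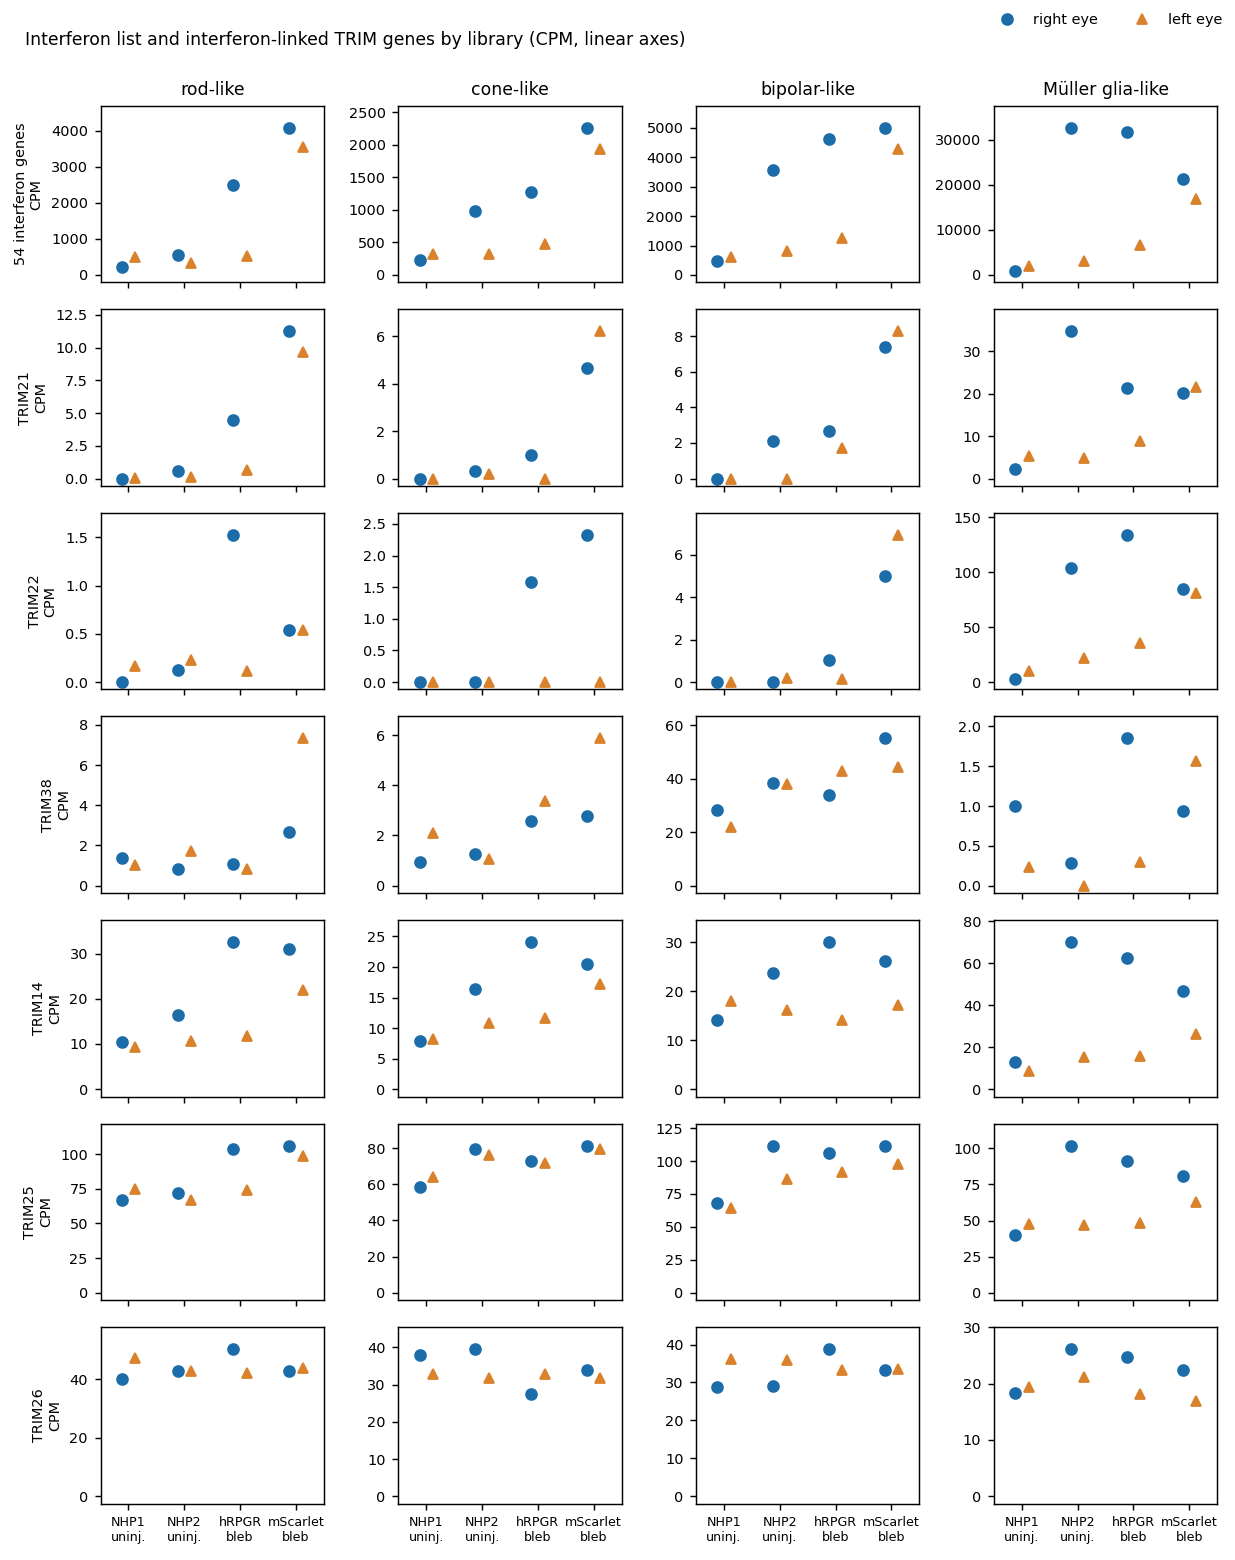
CPM (linear axes from 0) of the interferon list and of 6 interferon-linked TRIM genes in 4 cell classes. Each point is 1 library, circles are right eyes and triangles left eyes. TRIM21 followed the list in rods, where the mScarlet blebs lay at 11.2 and 9.69 CPM and all other libraries at or below 4.475 CPM, while TRIM26 stayed between 40.1 and 50.3 CPM.

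In rod-like cells TRIM21 had the largest log2 fold change of the interferon-linked group between mScarlet bleb and uninjected area. It stood at 0.561 CPM in the right and 0.133 CPM in the left uninjected area, at 4.475 and 0.636 CPM in the hRPGR blebs and at 11.2 and 9.69 CPM in the mScarlet blebs. The NHP1 libraries had 0 and 0.0327 CPM. The mScarlet blebs did not overlap any other library, and the right hRPGR bleb stood between. The log2 fold change between the mScarlet bleb and the uninjected area was 4.75 (SE 0.97), with 699 against 26 UMIs, and edgeR's adjusted p was 0.0704, which missed the threshold. DESeq2 gave an adjusted p of 0.00226. Leaving out the hRPGR library of the right or of the left eye, which is in neither group of this contrast, edgeR gave 0.00367 and 0.0041, and leaving out each other library gave 0.175 to 0.446. Free RNA stands here for the summed UMIs of barcodes with 100 to 1000 UMIs. Shallow cells and cell debris were not removed from these barcodes, so the pool may hold RNA of cells as well. Free RNA held TRIM21 at 1.53 and 0.611 CPM in the uninjected areas and 5.58 and 1.195 CPM in the hRPGR blebs, above the rods there. In the mScarlet blebs it held 4.09 and 5.16 CPM, below the rods there. The part of free RNA in the rod levels was not tested. TRIM21 UMIs came from 307 of 5009 and 288 of 5839 rods of the mScarlet blebs.

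Other interferon-linked members differed less in rods. TRIM38, which limits signalling at several sensors, was at 0.815 and 1.70 CPM in the uninjected areas, 1.06 and 0.838 CPM in the hRPGR blebs and 2.66 and 7.32 CPM in the mScarlet blebs. Both mScarlet values were the highest, and the left bleb stood alone (log2 fold change 1.93, SE 0.54, edgeR adjusted p 0.108, DESeq2 0.0134). TRIM38 in free RNA was at 1.11 and 1.57 CPM in the uninjected areas and 2.60 and 5.45 CPM in the mScarlet blebs. In the hRPGR blebs free RNA held 3.51 and 1.99 CPM, and its part in the rod difference was not tested. TRIM25, the ligase that modifies RIG-I, was at 71.7 and 66.7 CPM in the uninjected areas, 104 and 74.4 CPM in the hRPGR blebs and 106 and 98.8 CPM in the mScarlet blebs. The right hRPGR bleb overlapped the mScarlet blebs, and the change from the uninjected area was 0.50 on the log2 scale (SE 0.16, edgeR adjusted p 0.131, DESeq2 0.0363).

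TRIM14, an adaptor of the mitochondrial antiviral platform, had 16.4 and 10.7 CPM in uninjected rods, 32.55 and 11.7 CPM in the hRPGR blebs and 31.0 and 21.9 CPM in the mScarlet blebs. Its right hRPGR library was the highest of all, and the fold change of 0.89 (SE 0.47) had an edgeR adjusted p of 0.322. TRIM22, at most 1.525 CPM in any rod library and there in the right hRPGR bleb, followed neither the order nor the size of the list. TRIM26, in the MHC region, was at 42.8 and 42.7 CPM in the uninjected areas and 42.9 and 43.8 CPM in the mScarlet blebs, with a log2 difference of -0.05 and a 95% interval from -0.27 to 0.17. TRIM69 had 1.07 and 1.37 CPM against 2.19 and 1.52 CPM, and TRIM5 had at most 0.431 CPM in any rod library. TRIM56 and TRIM6 were below the filter.

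Beyond that group, TRIM54 and TRIM32 had the lowest p-values in rods. TRIM54, a muscle protein of microtubules and the sarcomere, was at 0.433 and 0.333 CPM in the uninjected areas, 0.696 and 0.520 CPM in the hRPGR blebs and 1.68 and 1.83 CPM in the mScarlet blebs. These groups did not overlap, and the log2 change of 2.10 (SE 0.37) had the lowest p of the family in rods, with an edgeR adjusted p of 0.0589 and 0.00557 in DESeq2. TRIM32, an NHL-repeat ligase known from limb-girdle muscular dystrophy, had 10.4 and 11.2 CPM, then 13.95 and 13.96 CPM, then 15.2 and 18.9 CPM in the same order. Its 3 areas were in separate ranges (log2 change 0.59 from uninjected to mScarlet, SE 0.12, edgeR adjusted p 0.0693, DESeq2 0.0123). TRIM36, a microtubule-associated ligase, went the other way, with 242 and 231 CPM in the uninjected areas, 239.7 and 240.5 CPM in the hRPGR blebs and 191 and 173 CPM in the mScarlet blebs. Here only the mScarlet blebs stood apart, by -0.45 on the log2 scale (SE 0.11, edgeR adjusted p 0.0884, DESeq2 0.00161).

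TRIM7, a ligase linked to enteroviral infection, rested on few UMIs, 33 in the mScarlet rods against 2 in the uninjected area (edgeR adjusted p 0.0805). TRIM10, an MHC-region gene known from red cell maturation that was chosen after its values were seen, had 66 against 2 UMIs, a ratio of 34.1 with an exact 95% counting interval of 9.07 to 287. Of its level 1.49 CPM was in the left and 0.412 CPM in the right mScarlet bleb. With 2 UMIs each in the uninjected area, TRIM7 and TRIM10 passed the filter on low counts in rods through the mScarlet libraries. Haemoglobin genes led rod clusters 1, 4 and 14. The mScarlet blebs had 96 and 197 rods in cluster 1, 0 and 0 in cluster 4 and 8 and 5 in cluster 14. The uninjected areas had 42 and 48, 4 and 10, and 1157 and 817 rods in the same clusters. The part of haemoglobin-rich cells in the TRIM10 value was not tested.

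Over all rods, 0 of 40 members tested were called between mScarlet bleb and uninjected area by edgeR, where 0.935% of all 14646 genes were called. At an unadjusted p under 0.05 there were 13 members (32.5%) against 22.5% of all genes, and DESeq2 called 7 of 38 members with an adjusted p, namely TRIM10, TRIM21, TRIM25, TRIM32, TRIM36, TRIM38 and TRIM54, against 11.1% of all genes. The interval of the log2 difference lay within -1 to 1 for 23 members, and 17 remained undecided. The members' median log2 difference was 0.12 against -0.0029 for all genes. The mScarlet bleb was above the uninjected area in both eyes for 24 members, and for 44.5% of all genes. It was below in both eyes for 6 members, and for 23.8% of all genes. T and NK markers summed to 56.8 and 63.4 CPM in uninjected rods, 100.9 and 70.6 CPM in the hRPGR blebs and 108 and 107 CPM in the mScarlet blebs (10 of 10 markers present), while the defining T cell gene CD3E was at 5.91 and 6.40, 7.69 and 6.88, and 5.73 and 6.48 CPM. Myeloid markers summed to 5.66 and 7.999, 26.1 and 7.98, and 11.9 and 16.9 CPM in the same order (10 of 10 present), with PTPRC, the pan-leukocyte gene CD45, at 0.0764 and 0.267, 1.09 and 0.116, and 0.222 and 0.169 CPM. The right hRPGR bleb, where rod TRIM14 and TRIM22 were highest, also had the highest myeloid sum and PTPRC level. In that library 441 of 5661 rods held a UMI of PTPRC, C1QA, C1QB, C1QC, TYROBP or AIF1. The rods without one held 902 of 982 TRIM14 UMIs and 41 of 46 TRIM22 UMIs. CD3E was higher in bipolar-like cells (12.6 to 20.5 CPM over the 8 libraries) than in rods. Which T and NK markers carried the rise of their sum in rods was not broken down. The part of T, NK and myeloid markers in the rod differences was not tested.

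**Figure D2:**
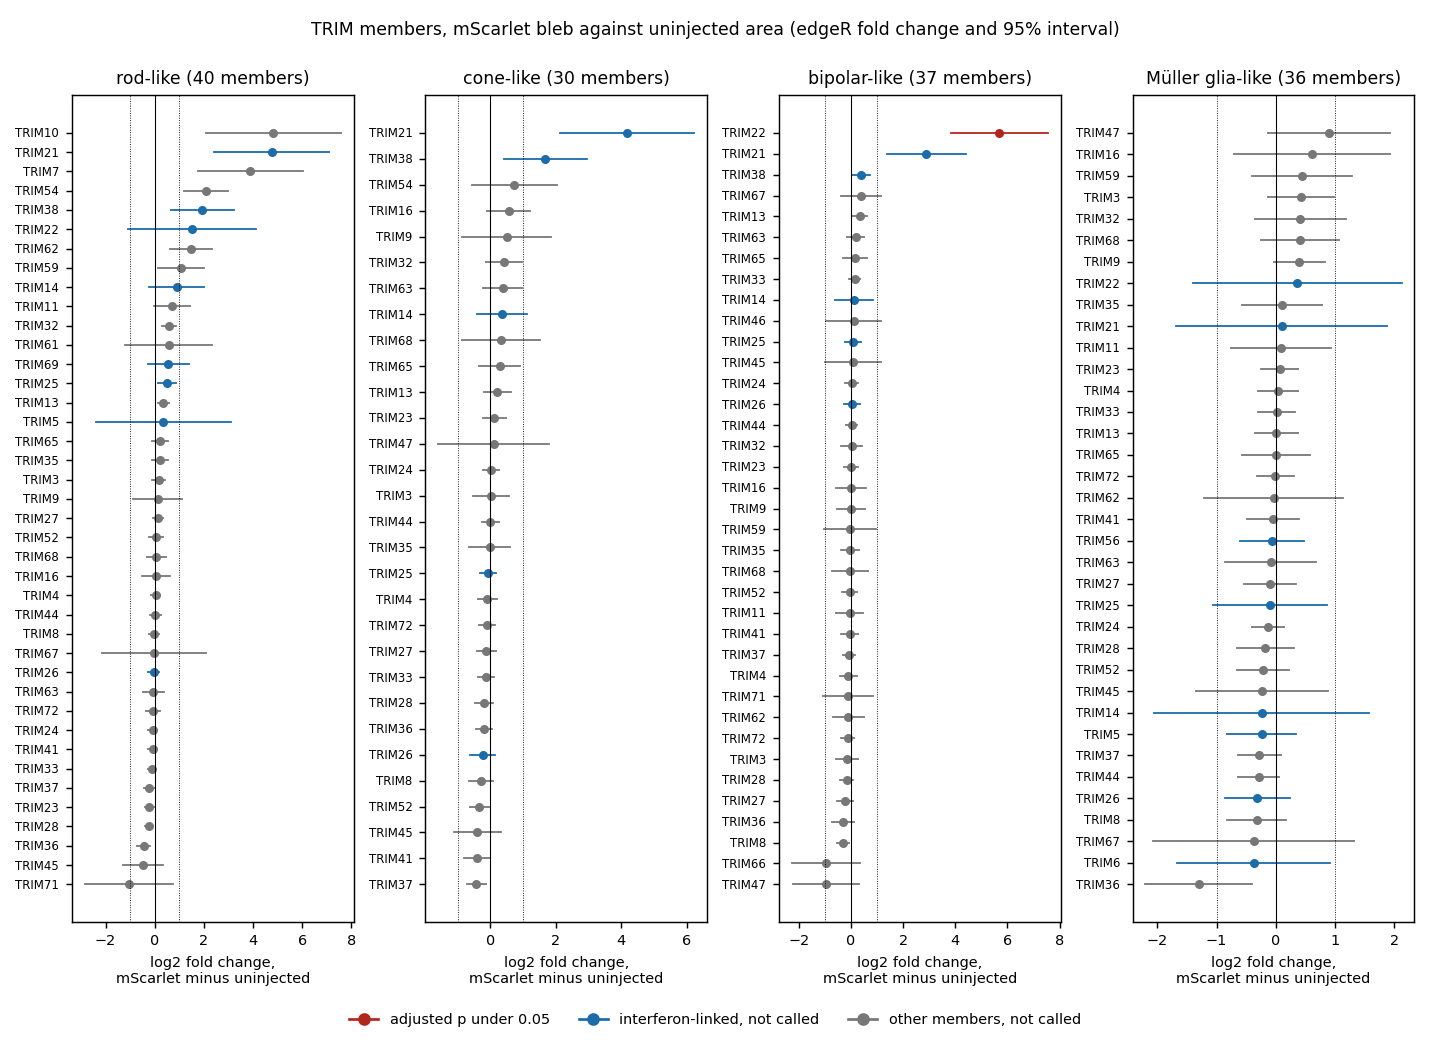
Log2 fold change (x axis) of each tested TRIM member between mScarlet bleb and uninjected area, with its 95% interval, in 4 cell classes. Dotted lines mark -1 and 1, and TRIM22 in bipolar-like cells is the 1 member past an adjusted p of 0.05. The whole interval lies between these lines for 23 of 40 members in rods, 21 of 30 in cones, 28 of 37 in bipolar cells and 22 of 36 in Müller glia, and TRIM21 lies at 4.75, 4.18 and 2.89 in rods, cones and bipolar cells.

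In cone-like cells TRIM21, TRIM37 and TRIM38 had the lowest p-values. TRIM21 had 0.315 and 0.175 CPM in the uninjected areas, 0.987 and 0 CPM in the hRPGR blebs and 4.65 and 6.21 CPM in the mScarlet blebs. The mScarlet blebs did not overlap the rest, but this was 48 against 3 UMIs, a ratio of 20.6 with an exact counting interval of 6.65 to 104 (edgeR adjusted p 0.0934, DESeq2 0.0488). The hRPGR blebs held 5 and 0 UMIs, so cone TRIM21 passed the filter on low counts through the mScarlet libraries alone. Free RNA held TRIM21 at 4.09 and 5.16 CPM in the mScarlet blebs, near the cone level, and its part in the cone UMIs was not tested. TRIM38 had 1.26 and 1.05 CPM, 2.57 and 3.38 CPM, and 2.79 and 5.86 CPM, with a log2 change of 1.68 (SE 0.55, edgeR adjusted p 0.206). In free RNA of the mScarlet blebs TRIM38 was at 2.60 and 5.45 CPM, near the cone level, and this part was not tested. TRIM37, a peroxisomal and centrosomal ligase, had 252 and 244 CPM in the uninjected areas and 209 and 193 CPM in the mScarlet blebs, while the right hRPGR bleb (211 CPM) lay among the latter (log2 change -0.42, SE 0.12, edgeR adjusted p 0.170).

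In cones 0 of 30 members were called between mScarlet bleb and uninjected area by edgeR, against 0.626% of 11662 genes. The unadjusted count was 5 (16.7%) against 15.8% of all genes, and DESeq2 called TRIM21 alone of 31 members with an adjusted p, against 2.3% of all genes. There were 21 members with a bounded and 9 with an undecided difference. The mScarlet bleb was above the uninjected area in both eyes for 14 members, and for 46.0% of all genes. It was below in both eyes for 8 members, and for 18.0% of all genes. The left mScarlet library rested on 129 cones, and 87 of the 370 cones of the right mScarlet library were in cluster 62, which held cells of that library alone at a median of 1720 UMIs. Müller glia markers in cones summed to 25.05 and 59.85 CPM in the uninjected areas, 370.4 and 38.7 CPM in the hRPGR blebs and 268.7 and 58.3 CPM in the mScarlet blebs. Myeloid markers summed to 6.30 and 8.93, 13.2 and 3.895, and 20.0 and 7.59 CPM, and PTPRC was at 4.50 CPM in the right mScarlet library and at 0 to 0.35 CPM in the other 5. Their part in the cone differences was not tested.

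Bipolar-like cells held the called member. TRIM22, an interferon-induced nuclear ligase of the TRIM5 cluster, had 0 and 0.184 CPM in the uninjected areas, 1.06 and 0.157 CPM in the hRPGR blebs and 4.98 and 6.94 CPM in the mScarlet blebs, while both NHP1 libraries had 0 CPM. Both mScarlet libraries were above all others. The log2 fold change against the uninjected area was 5.69 (SE 0.84, edgeR adjusted p 0.0130, 1 member of 37 against 0.728% of 12916 genes), and the eye as a block gave 0.0426 and DESeq2 0.0466 (1 of 41 members against 0.57% of all genes). It rested on 74 against 1 UMIs, a ratio of 64.5 with an exact 95% counting interval of 11.2 to 2581. The hRPGR blebs held 4 and 1 UMIs, so TRIM22 passed the filter on low counts through the mScarlet libraries alone. The call was lost without the right or the left uninjected library (adjusted p 0.0790 and 0.0796) and without the right or the left mScarlet library (0.0582 and 0.213), where the log2 change ranged from 4.88 to 8.05. The highest value is from the refit without the left uninjected library, in which the remaining one has 0 TRIM22 UMIs that set the fold. A refit without 1 library leaves a single library in its area, which is assumed to vary like the other areas.

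These UMIs were not spread evenly. Of the 74 in the mScarlet blebs, 52 came from bipolar cluster 36, led by HHIP, GSG1L2 and NXPH2, where TRIM22 was found in 26 of 115 cells (79.3 CPM). In that cluster the right mScarlet bleb had 64.6 CPM over 51 cells and the left 92.45 CPM over 64 cells. The hRPGR blebs had 7.27 CPM over 22 cells and 2.63 CPM over 62 cells, 1 UMI each, and the uninjected areas had 0 of 47 and 0 of 46 cells, where 3 UMIs would have been 12.2 and 10.7 CPM. The other bipolar cells of the mScarlet blebs held 1.37 and 2.335 CPM. The cluster was chosen after its values were seen, and no test was made on it.

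TRIM22 is also a gene of immune cells, at 234.0 and 169.5 CPM in myeloid-like and 295 and 198 CPM in T/NK-like cells of the mScarlet blebs, and free RNA there held it at 5.58 and 9.61 CPM. Rods of the same libraries stood at 0.539 and 0.535 CPM, with UMIs in 16 of 5009 and 16 of 5839 cells at a median of 5443 and 4985 UMIs. Bipolar cells had UMIs in 15 of 794 and 27 of 1007 cells at a median of 7029.5 and 6538 UMIs. Beside PTPRC, TRIM22 had 2.45 and 1.96 UMIs per PTPRC UMI in bipolar cells and 0.441 and 0.292 in myeloid-like cells. The bipolar ratios rest on 11 and 24 PTPRC UMIs, and rods of the same libraries had 2.43 and 3.17 on 7 and 6 PTPRC UMIs. Myeloid markers summed to 10.4 and 12.7 CPM in uninjected and 22.15 and 36.05 CPM in mScarlet bipolar cells, with 10 of 10 present. Free RNA of both mScarlet blebs was thus above the level over all bipolar cells and below that of cluster 36 (64.6 and 92.45 CPM). Bipolar cells outside cluster 36 were at 1.37 and 2.335 CPM. In cells without a UMI of PTPRC, C1QA, C1QB, C1QC, TYROBP or AIF1 lay 27 of 27 and 41 of 47 bipolar TRIM22 UMIs. The part of free RNA in the bipolar TRIM22 UMIs was not tested.

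**Figure D3:**
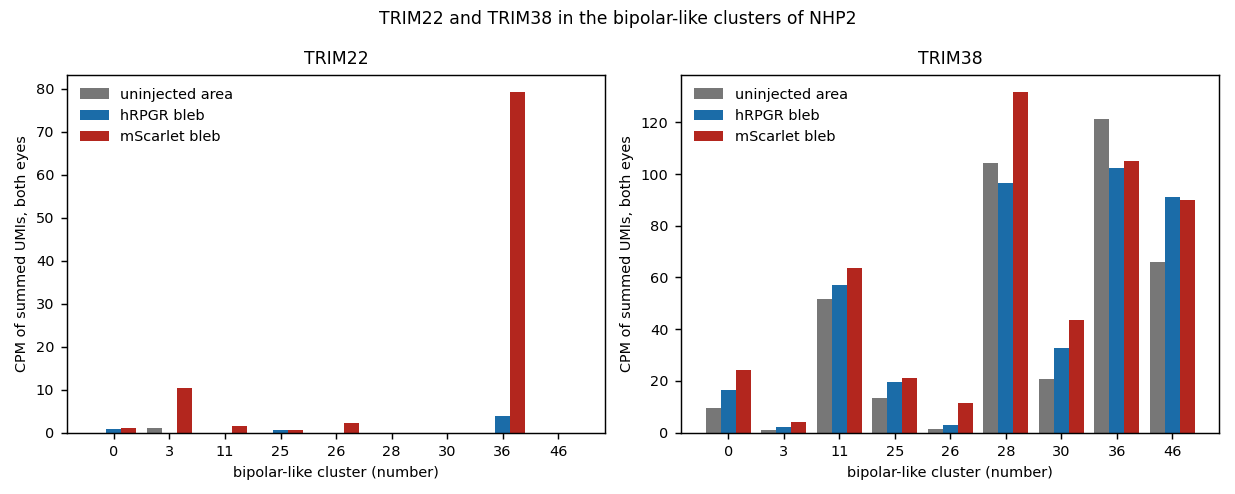
TRIM22 (left) and TRIM38 (right) in the 9 bipolar-like clusters of NHP2, as CPM of UMIs summed over both eyes (bars, from 0) for uninjected area, hRPGR bleb and mScarlet bleb. TRIM22 reached 79.3 CPM in cluster 36 of the mScarlet bleb and at most 10.3 CPM in any other bar, while TRIM38 differed among clusters in all 3 areas.

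TRIM21 had 2.13 and 0 CPM in uninjected bipolar cells, 2.66 and 1.72 CPM in the hRPGR blebs and 7.38 and 8.27 CPM in the mScarlet blebs. The mScarlet libraries lay above the others, by 2.89 on the log2 scale (SE 0.68, edgeR adjusted p 0.134). Without the right uninjected library, the one with coRPGR UMIs, the uninjected area is a single library, whose 0 UMIs then set the fold. TRIM38 was highest in bipolar cells among the retinal classes compared. It was at 38.5 and 37.8 CPM in the uninjected areas and 33.7 and 42.8 CPM in the hRPGR blebs. In the mScarlet blebs TRIM38 had 55.0 and 44.5 CPM (log2 change 0.38, SE 0.16, edgeR adjusted p 0.404). It was uneven among clusters in every area. In the uninjected area cluster 36 had 121 CPM and cluster 28 had 104 CPM, whereas clusters 3 and 26 had 1.05 and 1.41 CPM. TRIM8, a regulator of NF-kB and STAT signalling, was at 58.0 and 59.3 CPM, 56.3 and 56.7 CPM, and 48.2 and 46.1 CPM, the mScarlet blebs being lowest (log2 change -0.31, SE 0.11, edgeR adjusted p 0.315). Between mScarlet bleb and uninjected area, 5 bipolar members had an unadjusted p under 0.05 (13.5%) against 11.1% of all genes, and 28 members had a bounded and 8 an undecided difference. The mScarlet bleb was above the uninjected area in both eyes for 11 members, and for 29.8% of all genes. It was below in both eyes for 12 members, and for 27.6% of all genes.

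In Müller glia-like cells of the uninjected area and the hRPGR bleb, TRIM14, TRIM21, TRIM22 and TRIM25 were higher in the right eye than in the left. TRIM22 was at 104 CPM in the right and 21.9 CPM in the left uninjected area, 133.8 and 35.95 CPM in the hRPGR blebs and 84.5 and 81.0 CPM in the mScarlet blebs, against 2.99 and 10.5 CPM in NHP1. Within NHP2 the right uninjected and hRPGR areas were the highest, the left ones the lowest, and both mScarlet blebs lay between. The log2 difference between mScarlet bleb and uninjected area was 0.36 with a 95% interval from -1.40 to 2.12 (edgeR adjusted p 0.908). TRIM14 followed the same layout, at 70.0 and 15.2 CPM, 62.3 and 16.0 CPM, and 46.6 and 26.0 CPM. TRIM21 was at 34.7 and 4.86 CPM, 21.3 and 8.76 CPM, and 20.2 and 21.6 CPM, so that its right hRPGR bleb and both mScarlet blebs lay close together. From uninjected area to mScarlet bleb TRIM21 went to 0.583 of its level in the right eye and to 4.45 times it in the left, and for TRIM14 these ratios were 0.665 and 1.72. The sign of the pooled difference changed with single libraries. Without the right uninjected library, the one with coRPGR UMIs, the TRIM14 difference was 1.21 on the log2 scale in place of -0.24.

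TRIM25 had 102 and 47.1 CPM in uninjected Müller glia, 91.6 and 48.0 CPM in the hRPGR blebs and 81.2 and 63.0 CPM in the mScarlet blebs. TRIM5 and TRIM56 had Müller glia as their top class among the 5 retinal classes, and their uninjected areas differed less between eyes (ratios of right to left of 1.08 and 1.11, against 4.75 for TRIM22). TRIM5 was at 17.8 and 16.5 CPM, 23.7 and 21.45 CPM, and 18.6 and 11.5 CPM, and TRIM56 at 24.4 and 21.9 CPM, 24.4 and 15.7 CPM, and 23.3 and 22.65 CPM (log2 difference between mScarlet bleb and uninjected area -0.06, interval -0.60 to 0.47). Myeloid markers in this class summed to 592 and 427 CPM in the uninjected and 1225 and 1168 CPM in the mScarlet libraries (10 of 10 markers present). Of the defining markers PTPRC counted at most 5 UMIs in any library and TYROBP reached at most 2.47 CPM, and the part of myeloid RNA in these levels was not tested.

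In Müller glia 0 of 36 members were called between mScarlet bleb and uninjected area by edgeR, against 0.709% of 12409 genes. DESeq2 also called 0, against 1.99% of all genes. At an unadjusted p under 0.05 there was 1 member, TRIM36 (2.78%), against 12.5% of all genes. TRIM36 had 16.65 and 24.3 CPM in the uninjected areas, 21.3 and 9.97 CPM in the hRPGR blebs and 9.65 and 7.81 CPM in the mScarlet blebs (log2 change -1.30, SE 0.38, edgeR adjusted p 0.219). TRIM36 in free RNA went from 80.7 and 180 CPM in the uninjected areas to 58.6 and 54.1 CPM in the mScarlet blebs, and rod markers in Müller glia summed to 3464 and 3591 CPM in the uninjected areas, 2622 and 2123 CPM in the hRPGR blebs and 1706 and 1808 CPM in the mScarlet blebs (10 of 10 present). The fall in free RNA was not particular to TRIM36. In both eyes TRIM37, TRIM52 and TRIM72 fell there too, whereas TRIM16, TRIM21, TRIM22 and TRIM38 rose. The part of free RNA and of rod RNA in the Müller glia difference of TRIM36 was not tested. TRIM9, a neuronal ligase, had 129 and 109 CPM against 163 and 162 CPM, and TRIM47 had 8.61 and 5.05 CPM against 11.3 and 14.6 CPM (edgeR adjusted p 0.447 and 0.466). There were 22 members with a bounded and 14 with an undecided difference.

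Between hRPGR bleb and uninjected area edgeR and DESeq2 called 0 members in each of the 4 classes. The share of all genes called by edgeR was 0% in rods, 0.0171% in cones, 0.0155% in bipolar cells and 0.0242% in Müller glia, and by DESeq2 0.528%, 0.36%, 0.0814% and 0.203% in the same order. In rods 3 members (TRIM7, TRIM21 and TRIM32) had an unadjusted p under 0.05 against 4.55% of all genes. In cones, bipolar cells and Müller glia 0 members did, against 6.13%, 3.36% and 4.5% of all genes. For rod TRIM21 the log2 difference was 2.70 (SE 0.96, edgeR adjusted p 0.977). It was 0.75 without the right hRPGR library and 3.51 without the left. In each of these refits the hRPGR area is a single library. The rod TRIM21 levels of both hRPGR blebs were below free RNA, as given above. Bounded differences numbered 25 of 40 in rods, 23 of 30 in cones, 28 of 37 in bipolar cells and 20 of 36 in Müller glia.

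Between the 2 blebs edgeR called 0 members in every class, against 0% of all genes in rods, 0.111% in cones, 0.101% in bipolar cells and 0.0322% in Müller glia. Unadjusted p-values under 0.05 numbered 5 in rods (8.15% of all genes), 2 in cones (8.56%), 5 in bipolar cells (6.22%) and 2 in Müller glia (7.28%). DESeq2 called TRIM36 and TRIM38 in rods (2 of 37 members against 1.13% of all genes) and no member in cones, bipolar cells or Müller glia (0.402%, 0.101% and 0.378% of all genes). TRIM38 in rods differed by 2.38 on the log2 scale (SE 0.55, edgeR adjusted p 0.488) and TRIM22 in bipolar cells by 3.52 (SE 0.64, edgeR adjusted p 0.0968). For TRIM5 in Müller glia the difference was -0.63 (SE 0.25, edgeR adjusted p 0.647).

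A member was said to follow the interferon response where, within both eyes, its TMM-scaled CPM ranked the 3 areas strictly as the summed list did in that class. The CPM printed elsewhere are not TMM-scaled. In rods 10 of 40 members did so (25.0%) against 9.32% of all genes: TRIM7, TRIM10, TRIM13, TRIM21, TRIM25, TRIM27, TRIM32, TRIM54, TRIM59 and TRIM62. Among these, TRIM7 and TRIM10 had passed the filter on low counts through the mScarlet libraries, where they were high. In cones TRIM32 and TRIM38 did (6.67% against 4.91%), in bipolar cells TRIM13, TRIM21 and TRIM33 (8.11% against 5.56%), and in Müller glia TRIM14 and TRIM21 (5.56% against 2.24%). On CPM without TMM, rods again had 10 members, with TRIM3 in place of TRIM27, against 12.1% of all genes, and Müller glia had TRIM25 as well (8.33% against 1.76%). The members in cones and bipolar cells were the same on both scales, against 8.21% and 5.75% of all genes without TMM. TRIM13, an ER-anchored ligase, was at 25.4 and 27.7 CPM in uninjected rods, 33.4 and 28.4 CPM in the hRPGR blebs and 35.7 and 35.1 CPM in the mScarlet blebs. The step was small beside that of TRIM21, at 0.35 on the log2 scale (SE 0.09, edgeR adjusted p 0.0936). TRIM21, which followed in rods, bipolar cells and Müller glia, missed the order in cones through 0 UMIs in the left hRPGR bleb.

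By role, the interferon-linked group (10 of 11 listed genes found) had a median log2 difference between mScarlet bleb and uninjected area of 0.72 in rods (8 tested), 0.36 in cones (5), 0.25 in bipolar cells (6) and -0.17 in Müller glia (8), with 1 called, TRIM22. The 54 listed interferon genes had medians of 3.31, 2.55, 1.42 and 0.09 in the same classes, with 9 of 45, 7 of 32, 14 of 41 and 5 of 50 called and raised. With the eye as a block these counts were 2, 6, 15 and 4, and DESeq2 called 29, 7, 14 and 5. Without an uninjected or an mScarlet library of either eye no rod call was left and cone calls were fewer. Bipolar calls were then fewer or as many, and Müller glia calls fewer or more. Either hRPGR library left out gave more calls in rods, cones and bipolar cells and fewer in Müller glia. Each such refit leaves an area with a single library. The innate signalling group (13 of 14 found) had medians of 0.09, -0.02, -0.04 and 0.02, with 0 called by edgeR of 10, 9, 10 and 10 tested, against 0.935%, 0.626%, 0.728% and 0.709% of all genes. Of its members TRIM13 is described above, TRIM4 stayed between 36.8 and 47.4 CPM in rods, and TRIM23 between 33.1 and 43.8 CPM.

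The TIF1 co-regulators TRIM24, TRIM28 and TRIM33 had bounded differences in all 4 classes. TRIM66, the other member of that group, was tested in bipolar cells alone, where its difference was undecided (log2 -0.96, interval -2.27 to 0.36). TRIM28, which recruits silencing complexes to retroelements, was at 45.2 and 47.7 CPM in uninjected and 41.9 and 40.9 CPM in mScarlet rods, a log2 difference of -0.23 with an interval from -0.41 to -0.06 (edgeR adjusted p 0.126). TRIM33, which acts in SMAD signalling, was at 71.0 and 78.0 CPM against 72.8 and 71.0 CPM. TRIM72, a membrane repair protein of muscle, had 264 to 306 CPM in rods and 232 to 270 CPM in Müller glia over the 8 libraries. It overlaps PYDC1 on the other strand, and the counting of strand is not given in the sources used here.

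Genes that work with TRIM proteins were listed as well. The 9 ubiquitin-conjugating enzymes used by TRIM ligases had 0 called in any class between mScarlet bleb and uninjected area by edgeR, where 0.626% to 0.935% of all genes were called, with medians of -0.002 (rods), -0.148 (cones), -0.01 (bipolar cells) and 0.019 (Müller glia) on the log2 scale. UBE2L6, the conjugating enzyme of the ubiquitin-like ISG15, belongs to the interferon list and not to these 9, and was raised in rods (log2 change 5.68, edgeR adjusted p 0.0307) and in bipolar cells (log2 change 2.67, edgeR adjusted p 0.00499). Like every rod call of that list, its rod call was lost without an uninjected or an mScarlet library. Of the nucleic acid sensors and adaptors 5 were tested in each class and 0 called. Of the 11 TBK1 and TAK1 signal proteins IRF7, an interferon-induced transcription factor that is also in the interferon list, was raised in rods from 2.47 and 2.53 CPM to 19.9 and 17.6 CPM (log2 change 2.83, SE 0.41, edgeR adjusted p 0.0446), and also in cones and bipolar cells. The rod call of IRF7 was lost with the eye as a block (edgeR adjusted p 0.0839) and without any 1 of the uninjected and mScarlet libraries (0.163 to 0.317). The cone call was lost in the same refits (0.101 with the block, 0.217 to 0.236 without a library), and the bipolar call held with the block (0.0148) but was lost without the left uninjected or either mScarlet library (0.0555 to 0.0826). Of 8 binding partners SP100, a nuclear body protein, was raised in bipolar cells from 0.580 and 1.10 CPM to 11.1 and 9.75 CPM (log2 change 3.58, SE 0.39, edgeR adjusted p 0.002), and this call held with the block (0.00883) and without each library (0.000324 to 0.0327).

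Over the 8 libraries and the 5 classes with at least 50 cells in each library, 16 members had a top class whose lowest library was above every library of the other 4 classes. Ganglion-like cells (17 to 135 a library) and horizontal-like cells (35 to 117) fell below that limit and were not compared. Of 1778 TRIM67 UMIs in named cells 973 lay in the 5 classes, and of 247 TRIM55 UMIs 242 did. For TRIM46 these were 528 of 834 UMIs and for TRIM62 1130 of 1641, the rest lying in classes not compared. Amacrine-like cells were the top class of 8, TRIM9, TRIM17, TRIM23, TRIM46, TRIM55, TRIM62, TRIM67 and TRIM71. TRIM9 had 236 to 468 CPM there against at most 163 CPM elsewhere, TRIM67, its close relative, 20.5 to 36.1 CPM against at most 9.27 CPM, and TRIM46, which bundles microtubules at the axon initial segment, 14.9 to 25.9 CPM against at most 4.33 CPM. TRIM71, an NHL-repeat protein of stem cells, was at 18.0 to 52.1 CPM against at most 4.25 CPM. TRIM55, a muscle ligase, had 9.60 to 22.2 CPM in amacrine cells and at most 0.369 CPM elsewhere.

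**Figure D4:**
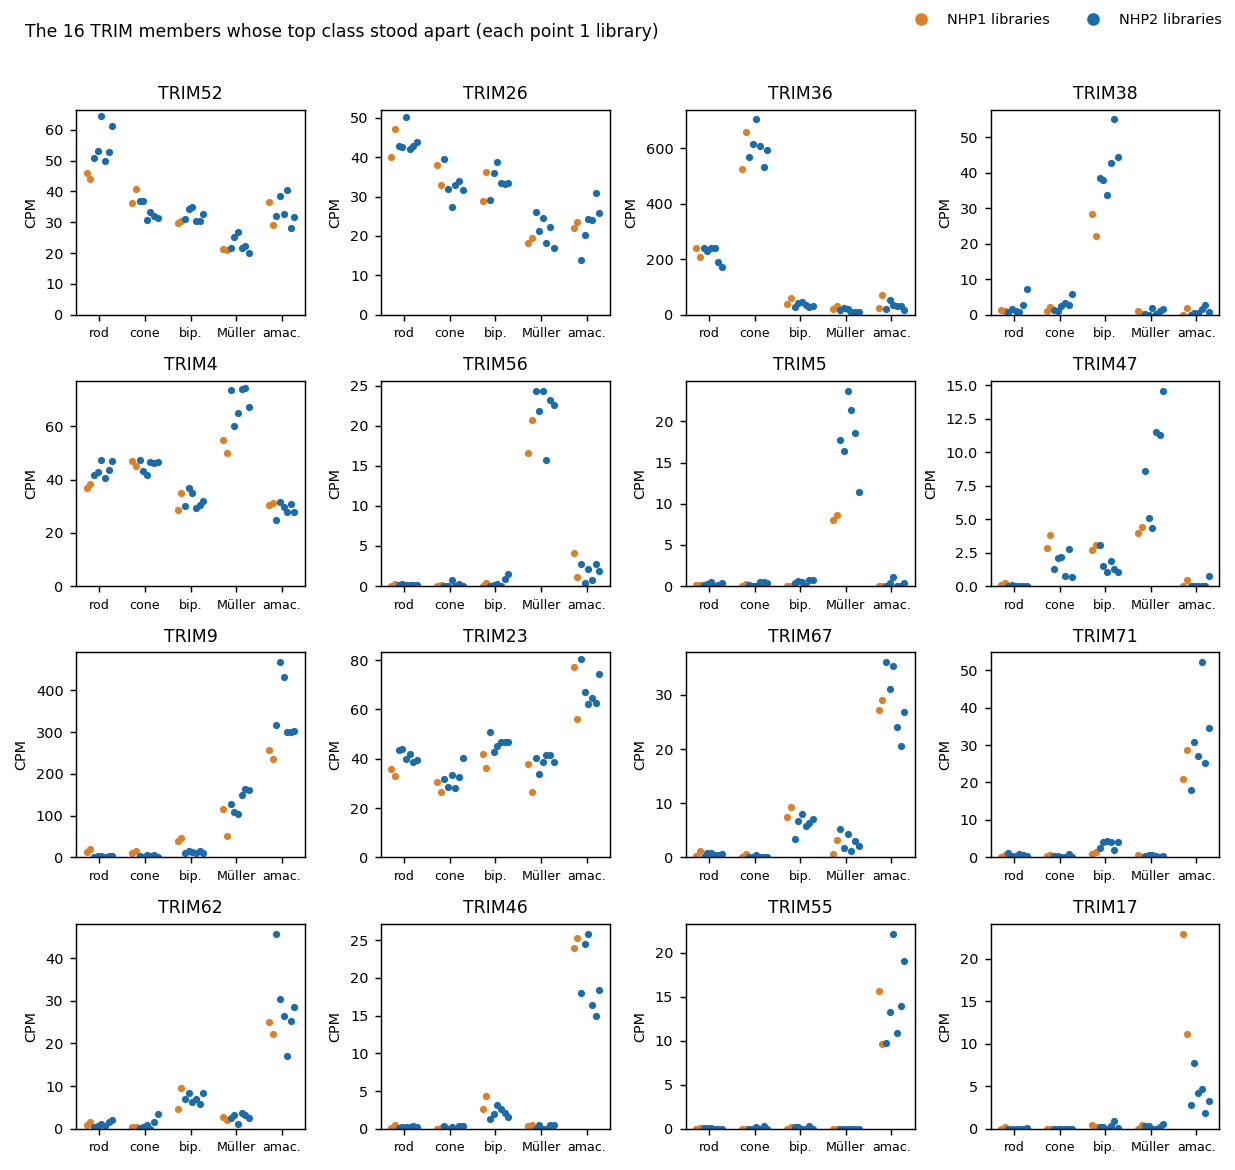
CPM (linear axes from 0) of the 16 TRIM members whose top class stood apart, in rod, cone, bipolar, Müller glia and amacrine-like cells. Each point is 1 library, orange for NHP1 and blue for NHP2. TRIM36 lay between 524 and 704 CPM in cones and at most at 242 CPM elsewhere, and 8 of the 16 members were highest in amacrine cells.

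TRIM36 marked cones, with 524 to 704 CPM against 173 to 242 CPM in rods and at most 71.9 CPM in the other 3 classes. Müller glia were the top class of TRIM4, TRIM5, TRIM47 and TRIM56. TRIM5 had 7.96 to 23.7 CPM there and at most 1.06 CPM elsewhere, TRIM56 15.7 to 24.4 CPM against 4.18 CPM, and TRIM47 3.98 to 14.6 CPM against 3.79 CPM, a narrow gap. Rods were the top class of TRIM26 (40.1 to 50.3 CPM, with cones up to 39.5 CPM) and TRIM52 (44.1 to 64.3 CPM, with cones up to 40.9 CPM), and bipolar cells of TRIM38 (22.0 to 55.0 CPM, elsewhere at most 7.32 CPM).

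With the 6 NHP2 libraries alone and myeloid-like cells added, 18 members stood apart. The libraries and the classes both changed here, and their parts cannot be told apart from these counts. Myeloid-like cells had TRIM38 at 134 to 153 CPM, TRIM22 at 169.5 to 287 CPM and TRIM5 at 54.9 to 100.3 CPM, above the 133.8 CPM and 23.7 CPM that Müller glia reached for TRIM22 and TRIM5. TRIM21 did not stand apart, and in myeloid-like cells of NHP2 it was at 7.255 to 18.1 CPM. TRIM17, TRIM26, TRIM47 and TRIM56 no longer had a class apart.

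The animals also differed in TRIM9. In rods it was at 13.8 and 20.4 CPM in NHP1 and at 1.63 to 3.33 CPM in the 6 NHP2 libraries, and in bipolar cells at 39.15 and 46.3 CPM against 10.1 to 15.4 CPM. Neither class overlapped between animals, whereas in Müller glia NHP1 had 116 and 50.4 CPM against 103 to 163 CPM. Free RNA held TRIM9 at 10.1 and 27.9 CPM in NHP1 and 4.67 to 19.3 CPM in NHP2. With 1 animal each, animal, vectors given to its eyes, age and library handling cannot be told apart.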

How the data were processed

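Retina of 2 macaques gave 8 libraries in 4 groups of 2 eyes. The authors aligned the reads with Cell Ranger 8.0.1 to a custom Mmul_10 reference with the transgenes, and the deposited values are raw UMI counts per gene and barcode. Their ambient RNA and integration steps were not applied here. Groups came from the labels, replicate 1 being the right and 2 the left eye.

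A barcode counted as a cell from 1500 UMIs and 300 genes upward, with mitochondrial UMIs up to 20%. Library depths are given in the report, and intervals on counts are exact and cover counting error only. Scrublet's own threshold marked 0 to 4.64% of cells and was replaced by 0.8% per 1000 cells, which removed 8604 cells (9.37%). Cells were clustered with scanpy 1.11.5 (3000 variable genes, 40 components, 15 neighbours, resolution 2) into 63 clusters. Of these 46 were named from fixed marker lists, by score limits set after looking at the clusters, and 17 (18133 cells) stayed unnamed.

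UMIs were summed per class and library. CPM scales each class and library to the same total. The 6 NHP2 libraries were fitted with edgeR 4.0.16 in R 4.3.3 (filterByExpr, TMM, glmQLFit, glmQLFTest, Benjamini-Hochberg over all genes tested). No eye term was used. Intervals of log2 differences are 95%, and a difference not called is bounded where its interval lies within -1 to 1. The fit was tested on simulated data. Replicate numbers mark the eyes of 1 animal and so pair the libraries. Correlations of their deviations ran from -0.217 to 0.387 in rods, -0.277 to 0.211 in cones, -0.044 to 0.057 in bipolar cells and 0.005 to 0.181 in Müller glia. Alternatives were DESeq2 1.42.0, other size factors, no count filter, the eye as a block, each library left out, doublets kept, at least 3000 UMIs and unnamed clusters counted.

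Members named were those called, the interferon-linked group, the 3 lowest p-values of each comparison, members with a class apart, and those in interferon order in at least 2 classes. The members and lists were chosen with earlier results of these data known. The sequence before 1 further member is not reported here.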

Additional observations from a re-analysis of the deposited data

Results flagged for a closer look

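Vector transcripts lie outside the measurement of TRIM genes, and in 2 libraries labelled uninjected they were well above 0. The right uninjected area of NHP2 held 9748 UMIs of coRPGR, where the left held 0. The left uninjected library of NHP1 held 32627 UMIs of huRPE65, where the right held 13.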

How the results depend on the processing

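The number of members called changed with the count filter, the tool and the libraries. With no count filter 6 members were called between mScarlet bleb and uninjected area in rods (TRIM7, TRIM10, TRIM21, TRIM32, TRIM38 and TRIM54), 3 in cones, 2 in bipolar cells and 2 in Müller glia, where 4.97%, 5.69%, 2.69% and 5.58% of all genes were called. Between the blebs the same setting gave 1 in cones, 2 in bipolar cells and 1 in Müller glia, against 1.7%, 1.66% and 2.66% of all genes. DESeq2 called 7 in rods and 1 in cones between mScarlet bleb and uninjected area, and 2 in rods between the blebs, against 11.1%, 2.3% and 1.13% of all genes. Cells with at least 3000 UMIs gave 1 in rods, against 1.76%. Leaving out 1 library gave 0 to 4 in rods, 0 to 1 in cones and 0 to 2 in bipolar cells for mScarlet bleb against uninjected area, 0 to 1 in rods for hRPGR bleb against uninjected area, and 0 to 1 in rods and in bipolar cells between the blebs. The share of all genes called ranged over the same refits from 0% to 6.83%, 0.0821% to 2.42% and 0.203% to 1.34% for the first contrast, from 0% to 1.07% for the second, and from 0% to 1.12% and 0.00751% to 0.382% between the blebs. The 4 in rods were TRIM21, TRIM25, TRIM32 and TRIM54, when either hRPGR library was left out and 1041 and 1013 genes of all were called in place of 137. Each such refit leaves 1 area with a single library, assumed to vary like the others. The cause was not tested.

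Signs turned only in leave-one-out fits, for 10 log2 differences between mScarlet bleb and uninjected area. In Müller glia, leaving out the left or the right uninjected library gave -1.0 and 1.21 for TRIM14, -0.79 and 2.04 for TRIM21, -0.39 and 1.86 for TRIM22, -0.56 and 0.56 for TRIM25, and -0.15 and 0.02 for TRIM56. Without the left mScarlet library TRIM14 was at 0.10, TRIM25 at 0.06 and TRIM5 at 0.05, and TRIM5 was at -0.62 without the right one. In bipolar cells, leaving out the left or the right uninjected library gave -0.16 and 0.42 for TRIM14, -0.10 and 0.28 for TRIM25, and 0.18 and -0.10 for TRIM26. Without the right mScarlet library TRIM14 was at -0.24 and TRIM25 at -0.05. In rods TRIM26 was at -0.10 and 9e-05 without the left or the right uninjected library. Of 53 fold changes 43 never reversed, and of 667 refits 611 kept direction and side of the threshold.

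With the eye as a replicate block TRIM22 in bipolar cells differed by 5.68 on the log2 scale (edgeR adjusted p 0.0426), and the block changed no call of a TRIM member. Over all genes it lowered the calls between mScarlet bleb and uninjected area from 137 to 4 in rods, 73 to 24 in cones, 94 to 70 in bipolar cells and 88 to 31 in Müller glia, and in the interferon list from 9 to 2 in rods. Other size factors, doublets kept and unnamed clusters counted changed no count of TRIM members called (for Müller glia the last was chosen after seeing the data). Over all genes these settings gave 141, 117 and 32 calls in rods in place of 137. In Müller glia they gave 83, 36 and 66 in place of 88. In the interferon list unnamed clusters counted left 6 rod calls in place of 9. In bipolar cells TRIM22 rested on 1 UMI in the uninjected areas, so its fold change is limited by depth.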
